A study of Mus musculus with 6 samples.

Results

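Cyp26a1, Lrat and Des are 3 of the 332 genes in the authors' table of liver transcripts that differed between mice given gigantol and mice given vehicle. They were picked by symbol from that table, so each had already passed the authors' selection on this same comparison, and their differences between the groups are described here without a test. The 6 livers were those of male Kunming mice, an outbred stock, 6 to 8 weeks old and 20 to 28 g in weight. An oral dose of gigantol (10 mg/kg) went to 3 mice and the vehicle alone to the other 3, and all were killed 4 h later. Gigantol, a bibenzyl of Dendrobium orchids, is called an agonist of PPARα and PPARγ in the series title. Total RNA of each liver was depleted of ribosomal RNA and sequenced, and levels are given as CPM, read counts scaled by the authors to a common library size.

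Retinol, the alcohol form of vitamin A, reaches the liver from the diet and is stored there as retinyl esters in the lipid droplets of hepatic stellate cells, the pericyte-like cells beside the sinusoids. Lrat encodes lecithin-retinol acyltransferase, the enzyme that makes those esters, and is a standard marker of quiescent stellate cells. Retinol can instead be oxidised to retinoic acid, which switches genes on through the RAR and RXR nuclear receptors. Cyp26a1 encodes the cytochrome P450 that hydroxylates retinoic acid for clearance; it is made chiefly by hepatocytes around the central vein and is itself induced by retinoic acid, and Lrat is retinoic acid responsive as well. Des encodes desmin, the type III intermediate filament protein of muscle, which in rodent liver marks stellate cells and vascular smooth muscle. Setting the 3 genes side by side asks whether the retinoid genes were lower together with a marker of the cell type that stores retinoid.

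The bases just before each gene's start are shown because induction of Cyp26a1 by retinoic acid is known to act through sites close to its start, where RAR and RXR bind paired hexamers. The sequences are those of RefSeq on GRCm38.p6, matched by symbol for all 3 genes, written 5′ to 3′ along the gene's strand and ending before the first annotated transcript. Capitals mark, on either strand, the hexamer AGGTCA or one of 3 relatives of it, which are AGTTCA or else GGGTCA or else GGTTCA. Seen from the opposite strand, the hexamer AGTTCA is read as TGAACT. The stretches are chr19:37697558-37697797 on the plus strand for Cyp26a1, chr3:82903975-82904224 on the minus strand for Lrat and chr1:75360042-75360291 on the plus strand for Des.
Cyp26a1: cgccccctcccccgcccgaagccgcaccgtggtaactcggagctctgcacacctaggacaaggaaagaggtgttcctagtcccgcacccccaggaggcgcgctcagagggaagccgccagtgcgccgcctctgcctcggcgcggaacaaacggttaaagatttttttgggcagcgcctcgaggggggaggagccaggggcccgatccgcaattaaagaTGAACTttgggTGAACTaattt
Lrat: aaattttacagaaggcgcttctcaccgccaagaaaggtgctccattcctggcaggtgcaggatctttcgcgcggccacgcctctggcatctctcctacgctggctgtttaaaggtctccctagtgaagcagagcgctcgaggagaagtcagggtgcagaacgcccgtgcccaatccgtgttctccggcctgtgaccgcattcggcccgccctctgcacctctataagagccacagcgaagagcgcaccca
Des: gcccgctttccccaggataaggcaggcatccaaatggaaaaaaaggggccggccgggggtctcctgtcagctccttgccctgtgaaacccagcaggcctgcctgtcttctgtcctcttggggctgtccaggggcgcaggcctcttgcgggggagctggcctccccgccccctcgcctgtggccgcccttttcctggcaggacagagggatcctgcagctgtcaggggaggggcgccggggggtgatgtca
The Cyp26a1 stretch holds 2 such hexamers, both on the strand opposite to the gene and pointing the same way. They are separated by 5 bases and so form a direct repeat, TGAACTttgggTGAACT, which runs from 32 to 16 bases before the RefSeq start. A repeat of 2 of these hexamers with 5 bases between, on either strand, was present in 32 of 32851 RefSeq promoter windows of 250 bases before to 50 bases after a start (0.0974%), and a single hexamer in 43.7% of them. Among the 192 genes of the table with a promoter window, Cyp26a1 and Ppbp, a platelet chemokine gene, held the repeat. The windows of Lrat and Des held none of the hexamers, which says only that these letters are not within those bases. The letters TATAA, searched on both strands and present in 24.9% of windows, lay 29 to 25 bases before the start of Lrat and 30 to 34 bases after the RefSeq start of Cyp26a1, with none in the Des window.

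By the coordinates of the table, whose mouse build has no name in it, Cyp26a1 (ENSMUSG00000024987) spans chromosome 19 from 37686246 to 37689984 on the plus strand, Lrat (ENSMUSG00000028003) chromosome 3 from 82799886 to 82811280 on the minus strand, and Des (ENSMUSG00000026208) chromosome 1 from 75336973 to 75345223 on the plus strand. These coordinates are not those of GRCm38, although the spans of 3739, 11395 and 8251 bases are the same in both. In the GENCODE M21 annotation Lrat overlaps the antisense gene Rbm46os and Des the antisense gene Gm15179. The libraries were stranded, per the labels' protocols, but no source used here says whether counting used the strand, so some reads of Lrat and Des could belong to those partners. Cyp26a1 overlaps no other annotated gene there.

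Libraries held 21200000 to 26700000 reads, worked out from the smallest CPM steps, and a single read was worth 0.0374 to 0.0471 CPM. Of the 332 genes, 213 (64.2%) had a lower mean in the gigantol livers, 86 (25.9%) had an FDR under 0.05 in the authors' deposited table, and the groups did not overlap for 239 (72.0%), always on rows chosen for this difference. Of the 201 genes that could be fitted with limma, 111 (55.2%) had an adjusted p under 0.05 over those rows, 71 of them (35.3%) lower. The livers carried 1 batch label. PANC1, a human pancreatic line, stands in the sample titles, although the organism label and every gene ID are of mouse; the groups therefore rest on the treatment label. None of the 21 hepatocyte identity genes listed for a tissue check was analysed here; Cyp7a1 and Hamp, both made mainly by hepatocytes, were present in every library.

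Cyp26a1, the retinoic acid hydroxylase, showed the largest fold difference of the 3 genes. Its level was 3.30, 5.98 and 6.94 CPM in vehicle livers 1, 2 and 3 and 0.565, 1.83 and 0.610 CPM in gigantol livers 1, 2 and 3. All 3 gigantol livers lay below all 3 vehicle livers, with gigantol liver 2 standing above the other gigantol livers and vehicle liver 1 below the other vehicle livers. The means were 5.41 ± 1.89 CPM in vehicle and 1.00 ± 0.718 CPM in gigantol livers (SD, n = 3 each), a 5.40-fold lower level. Without gigantol liver 2 the vehicle mean was 9.20 times the gigantol mean. The values rest on about 12, 39 and 15 reads in the gigantol livers and 88 to 160 reads in the vehicle livers. Gigantol liver 2 lay outside counting error of the others, with an exact Poisson 95% interval of 27.7 to 53.3 reads against 6.20 to 21.0 and 8.40 to 24.7 reads. Such intervals cover counting error only. On log2(CPM + 1), the scale fitted by limma, the difference of means was −1.69 ± 0.379 (SE); adding 1 CPM understates the change of genes this low. The authors' deposited table, whose values chose the gene, gives a log2 fold change of −2.43 and an FDR of 0.000561, rank 30 of the 332 by p.

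Lrat, the retinol-esterifying enzyme, was the most abundant of the 3 in CPM and had the narrowest separation. It stood at 9.77, 20.5 and 17.6 CPM in vehicle livers 1, 2 and 3 and at 8.15, 5.87 and 9.31 CPM in gigantol livers 1, 2 and 3. The highest gigantol liver and the lowest vehicle liver were 0.465 CPM apart, a ratio of 1.05, so the groups touched without overlapping. That gap lay within counting error, since vehicle liver 1 had about 261 reads (exact Poisson 95% interval 8.62 to 11.0 CPM) and gigantol liver 3 about 229 (8.14 to 10.6 CPM). The means were 16.0 ± 5.56 CPM in vehicle and 7.77 ± 1.75 CPM in gigantol livers (SD, n = 3 each), 2.05-fold lower, and the difference on log2(CPM + 1) was −0.91 ± 0.441 (SE, limma). The authors' deposited table gives a log2 fold change of −1.03, just inside its selection at an absolute value of 1, and an FDR of 0.121, so Lrat did not pass at 0.05. Genes just outside that limit were not analysed here.

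Des, the filament protein that marks stellate cells and muscle, was at 3.37, 3.99 and 4.25 CPM in vehicle livers 1, 2 and 3 and at 1.51, 0.939 and 2.56 CPM in gigantol livers 1, 2 and 3. The vehicle livers sat close together, whereas the gigantol livers spread 2.73-fold from liver 2, the lowest, to liver 3. That spread was wider than counting error, with about 20 reads (exact Poisson 95% interval 12.2 to 30.9) in gigantol liver 2 and about 63 (48.4 to 80.6) in gigantol liver 3. The means were 3.87 ± 0.452 CPM in vehicle and 1.67 ± 0.823 CPM in gigantol livers (SD, n = 3 each), 2.32-fold lower without overlap, with a difference of −0.91 ± 0.346 on log2(CPM + 1) (SE, limma). The log2 fold change of −1.20 in the authors' deposited table came with an FDR of 0.136, so Des did not pass either. In bulk liver, fewer cells of a type and less RNA per cell cannot be told apart, for Des as for Lrat and Cyp26a1.

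**Figure D1:**
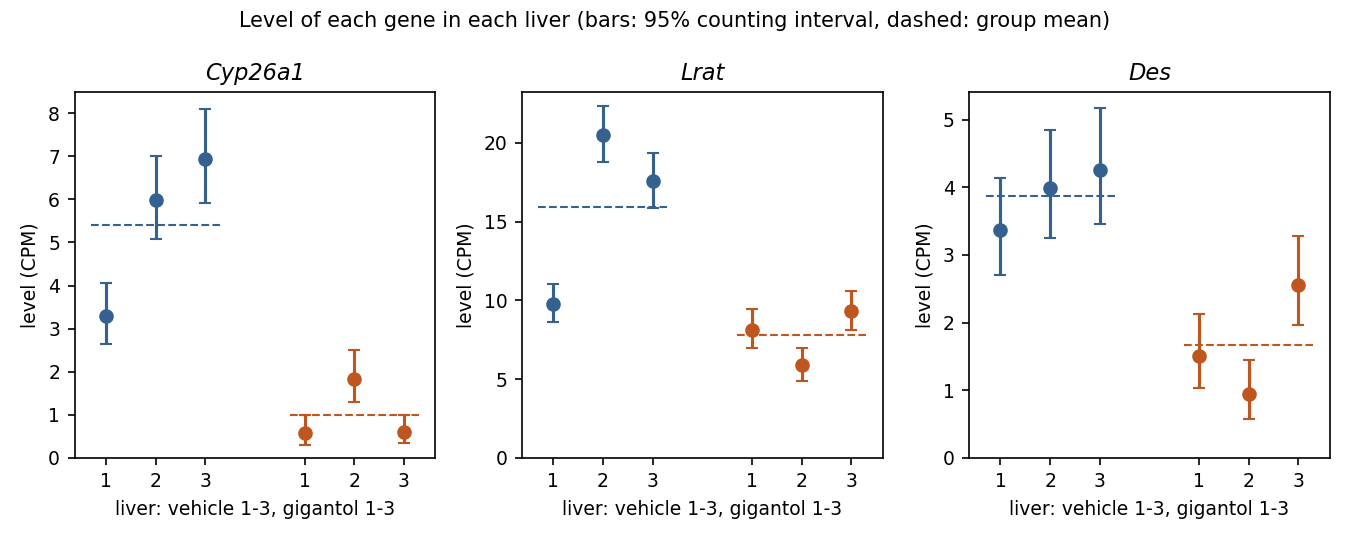
Level in CPM (y axis, from 0) of Cyp26a1, Lrat and Des in each vehicle liver (blue) and gigantol liver (orange); bars are exact Poisson 95% counting intervals and dashed lines group means. Gigantol liver 2 is the highest of its group for Cyp26a1 (1.83 CPM) and the lowest for Lrat (5.87 CPM) and Des (0.939 CPM), and the intervals of Lrat meet between vehicle liver 1 and gigantol liver 3.

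Divided by the length of its merged exons, 1983 bases for Cyp26a1, 5351 for Lrat and 3754 for Des in GENCODE M21, the levels can be set against each other. In vehicle livers Lrat stood at 2.98 ± 1.04 and Cyp26a1 at 2.73 ± 0.953 CPM per kb, with ranges of 1.83 to 3.84 and 1.66 to 3.50 that overlapped, and Des lay below both at 1.03 ± 0.120 CPM per kb (SD, n = 3 each). In gigantol livers Lrat was highest at 1.45 ± 0.327 CPM per kb. Cyp26a1 at 0.505 ± 0.362 and Des at 0.445 ± 0.219 CPM per kb overlapped each other there. The order of these 2 genes differed between gigantol livers. Cyp26a1 was at 0.285, 0.923 and 0.308 CPM per kb in gigantol livers 1 to 3 and Des at 0.401, 0.250 and 0.682. Cyp26a1 was thus above Des in liver 2 and below it in livers 1 and 3. In liver 1, on about 12 reads of Cyp26a1 and 32 of Des, that order was within counting error. Which transcripts each liver used is not known from gene totals.

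The ratios of one gene to another within a liver show where the 3 genes parted. The ratio of Lrat to Des CPM was 2.90, 5.15 and 4.13 in vehicle livers 1, 2 and 3 and 5.40, 6.25 and 3.63 in gigantol livers 1, 2 and 3, so the groups overlapped, at means of 4.06 ± 1.12 and 5.10 ± 1.33 (SD, n = 3 each). The ratio of Cyp26a1 to Des was 0.978, 1.50 and 1.63 in vehicle livers and 0.375, 1.95 and 0.238 in gigantol livers. Gigantol livers 1 and 3 lay far below the vehicle range, and gigantol liver 2 lay above it by point value. In gigantol liver 2 that ratio rests on about 39 reads of Cyp26a1 and 20 of Des, and the counting error of the ratios was not worked out. The ratio of Cyp26a1 to Lrat showed the same split, at 0.337, 0.291 and 0.395 in vehicle livers, 0.0694 and 0.0655 in gigantol livers 1 and 3 and 0.312 in gigantol liver 2. In gigantol livers 1 and 3, then, the clearance enzyme was low beyond what either stellate marker showed. In gigantol liver 2 all 3 genes were below every vehicle liver, but their ratios to one another lay within or above the vehicle range. Averaged on a log2 scale, the Cyp26a1 to Des ratio differed between groups by −1.26 ± 0.949 (SE) with all livers. That difference was −2.16 without gigantol liver 2 and −0.65 without gigantol liver 3. The Lrat to Des ratio differed by 0.33 ± 0.336 (SE).

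**Figure D2:**
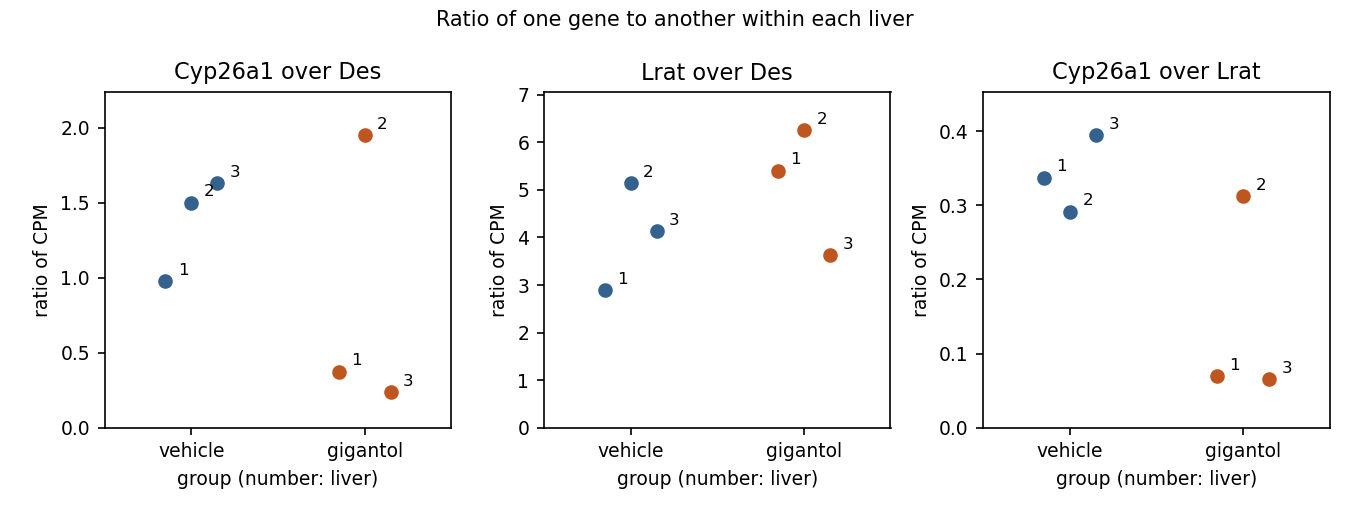
Ratio of CPM of one gene to another (y axis, from 0) in each liver, numbered by replicate, vehicle in blue and gigantol in orange. Lrat over Des overlaps between groups, whereas Cyp26a1 over Des and over Lrat is low in gigantol livers 1 and 3 (0.375 and 0.238 over Des) and at 1.95 over Des in gigantol liver 2.

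The profiles over all 6 livers were compared as well. Each gene was centred on its own mean of log2(CPM + 1), and profiles were compared by their root mean square difference over the 6 livers. Des was 0.26 log2 units from Lrat, number 11 in nearness of the 213 other genes whose mean reached 1 CPM, where the median gene was 0.78 from Lrat. From Cyp26a1, Lrat was 0.60 away (number 55) and Des 0.67 (number 71), against a median of 0.83. All these genes were selected for a difference between the same groups, so nearness is a description of these livers. Adding 1 CPM understates the changes of genes near that level, so the distances also depend on how abundant a gene is. The genes nearest to Cyp26a1 were Socs2, which damps growth hormone receptor signalling (0.18), S100a13, a calcium-binding protein gene (0.18), and the predicted gene Gm43042 (0.24). Each of them was highest in gigantol liver 2 within its group and lowest in vehicle liver 1 within its group, as Cyp26a1 was; Socs2, for example, stood at 7.67, 13.3 and 9.43 CPM in gigantol livers 1 to 3 and 18.0, 41.4 and 46.2 CPM in vehicle livers 1 to 3. The genes nearest to Lrat were Cd209f, a C-type lectin gene (0.12), Tafa2, which encodes a chemokine-like secreted protein (0.13), and Tnfrsf19, a TNF receptor family member (0.17). Nearest to Des were the predicted gene Gm44660 (0.17), the chloride channel accessory gene Clca3a1 (0.17) and Trib3, a stress-induced pseudokinase (0.17).

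**Figure D3:**
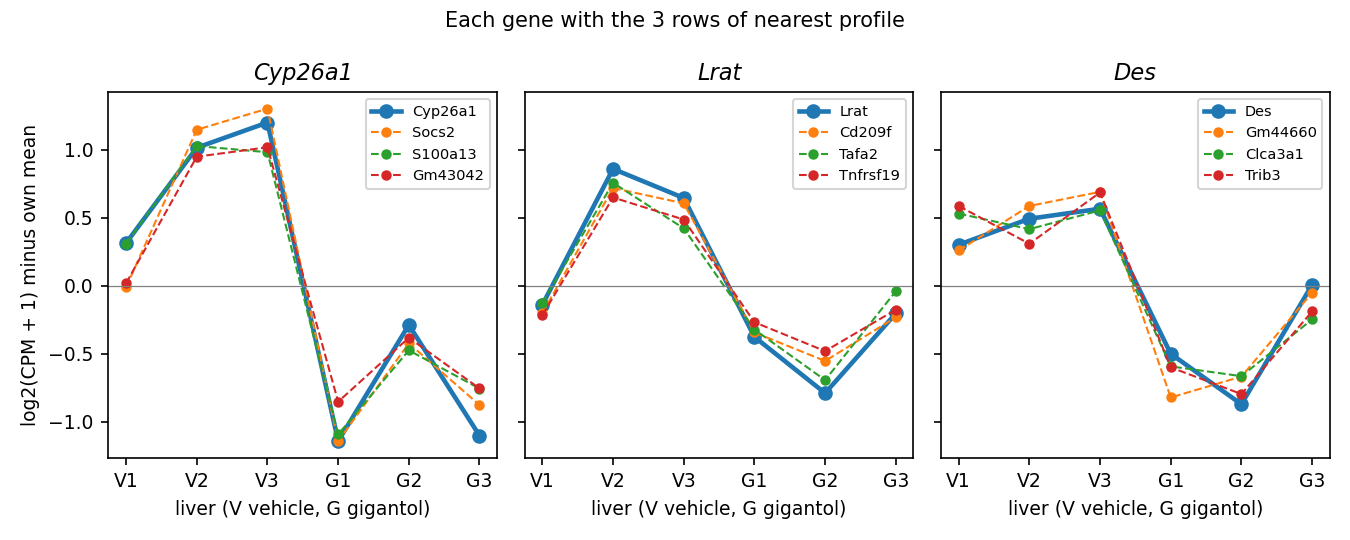
Log2(CPM + 1) minus the gene's own mean over 6 livers (y axis) in vehicle livers V1 to V3 and gigantol livers G1 to G3, for each gene (thick line) and the 3 genes of nearest profile (dashed). Cyp26a1 and its neighbours rise at G2 within the gigantol group, where Lrat and its neighbours are at their lowest.

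Retinoic acid target genes did not all go one way. Of 47 targets listed, 4 were analysed here, 3 with a lower mean and 1 with a higher one, where 64.2% of all 332 genes had a lower mean. With an FDR under 0.05 in the authors' deposited table, 2 of the 4 were lower and 1 was higher, against 15.7% and 10.2% of the 332 genes. Beside Cyp26a1 and Lrat, Trib3 was at 21.3, 17.4 and 22.9 CPM in vehicle livers 1 to 3 and at 8.80, 7.56 and 12.0 CPM in gigantol livers 1 to 3, without overlap (FDR 0.00135 in the authors' deposited table). Hamp, the gene of the iron-regulating hormone hepcidin, was higher, at 183, 514 and 296 CPM in gigantol livers against 122, 88.7 and 96.4 CPM in vehicle livers, FDR 0.000702 in the authors' deposited table. Both are better known as targets of stress and of iron and cytokine signals. The classical receptor-driven targets on the list, such as Rarb, Cyp26b1, Dhrs3, Stra6 and Crabp2, were not analysed here. Nor was any of the 17 listed retinoid receptors and binding proteins.

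The table's own gene annotation gave a wider set, looked up after the values were seen. It tied 6 genes to a response to retinoic acid: Cyp26a1, Lrat, Tnc, Dusp1 and Myc with lower means and Sftpa1 with a higher one. Myc, the growth transcription factor, followed Cyp26a1 in its order of livers, at 6.67, 9.93 and 11.3 CPM in vehicle livers 1 to 3 and at 2.21, 7.32 and 2.48 CPM in gigantol livers 1 to 3. Its gigantol liver 2 fell inside the vehicle range, and without it the vehicle mean was 3.96 times the gigantol mean in place of 2.32. Dusp1, a stress-induced phosphatase gene, was at 32.9, 45.4 and 51.1 CPM in vehicle livers and 20.7, 9.20 and 32.0 CPM in gigantol livers. Its gigantol order, with liver 2 the lowest, was that of Lrat and Des, while its vehicle order was that of Cyp26a1 and Des and not of Lrat. Sftpa1, a surfactant protein gene, was at 6.29 CPM in gigantol liver 2 and at 0.487 to 1.63 CPM in the other livers, and its gigantol mean was 3.58 times the vehicle mean, or 1.45 times without that liver. Of these 6 genes Cyp26a1 alone had an FDR below 0.05 by the authors' deposited table, where Tnc, Dusp1, Myc and Sftpa1 had 0.285, 0.317, 0.325 and 0.339. Over all 332 genes 25.9% had such an FDR and 64.2% a lower mean.

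Genes annotated to retinol metabolism split evenly by mean, 4 lower and 4 higher in the gigantol livers, where 64.2% of all 332 genes had a lower mean. Lower beside Cyp26a1 and Lrat were the fatty acid hydroxylases Cyp4a12b, at 155, 247 and 272 CPM in vehicle livers and 68.7, 20.9 and 108 CPM in gigantol livers, and Cyp4a32. The lower mean of Cyp4a32 came from vehicle liver 1 at 927 CPM, without which the vehicle mean was 1.09 times the gigantol mean. Higher by mean were Cyp4a31, the drug-metabolising Cyp2b10, the glucuronosyltransferase Ugt2b38 and Aox1, an aldehyde oxidase able to turn retinal into retinoic acid. The groups overlapped for Cyp2b10, at 160, 59.0 and 195 CPM in gigantol livers 1 to 3 and 49.2 to 67.5 CPM in vehicle livers. Aox1 stood at 82.1 CPM in gigantol liver 2, against 19.8 CPM in each of the other gigantol livers and 11.7 to 14.8 CPM in vehicle livers, so its gigantol mean was 3.03 times the vehicle mean with that liver and 1.48 times without. In the authors' deposited table the FDR of Cyp4a12b was 0.0395 and those of the 4 higher genes were 0.101 to 0.186. Without vehicle liver 1 the gigantol mean of Cyp4a31 was 7.85 times and that of Ugt2b38 3.50 times the vehicle mean, against 3.41 and 2.22 times with it. Genes of the Cyp4a, Cyp2b and Ugt2b families have close relatives, among which the authors' counting could have split reads. Akr1b3 and Akr1b8, aldo-keto reductases annotated to retinal reduction, had lower means. Akr1b3 was at 11.9 to 13.2 CPM in vehicle livers and 4.15 to 7.30 CPM in gigantol livers (FDR 0.00135 in the authors' deposited table). Akr1b8 was at 2.36 to 4.38 and 0.732 to 1.97 CPM and did not pass (FDR 0.186 in the authors' deposited table).

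**Figure D4:**
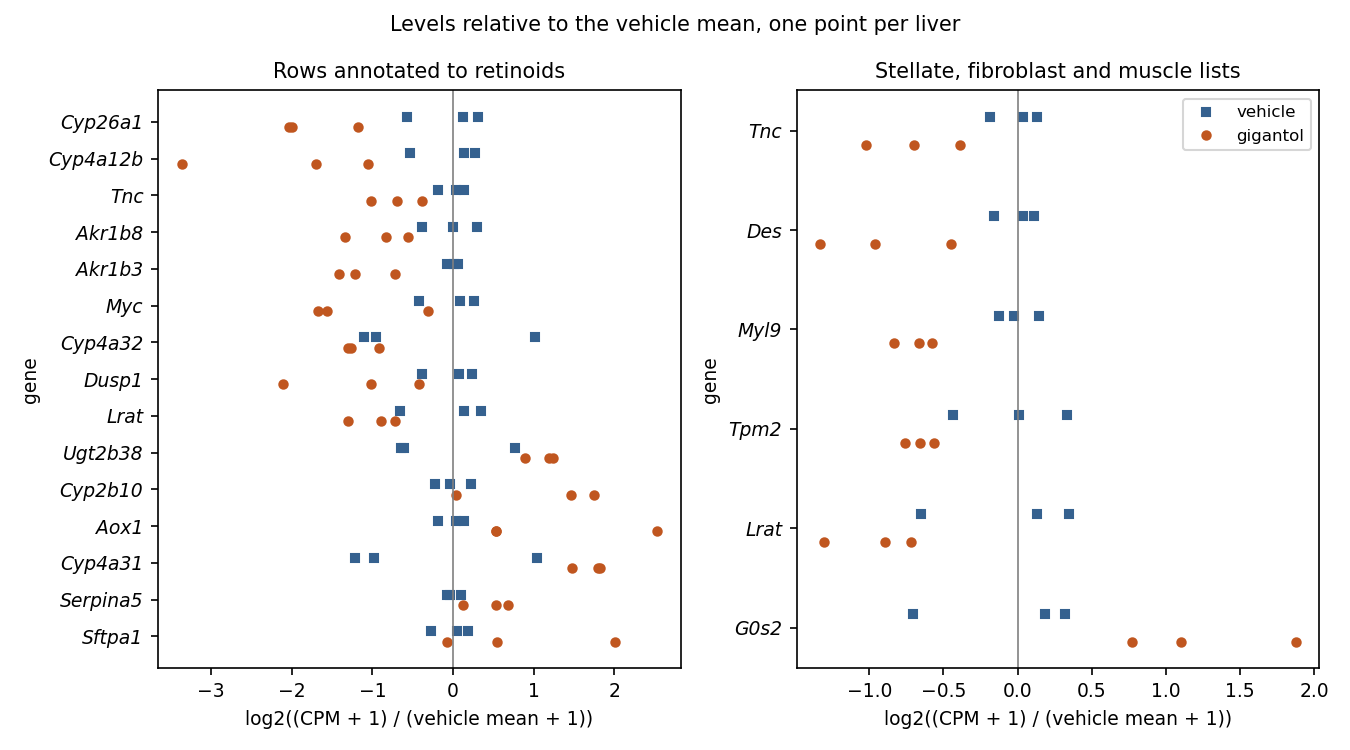
Log2 of (CPM + 1) over the vehicle mean + 1 (x axis), one point per liver, vehicle as blue squares and gigantol as orange circles, for genes annotated to retinoids (left) and for listed stellate, fibroblast and muscle genes (right). On the left 9 genes have lower and 6 higher gigantol means, where 64.2% of all 332 genes had lower ones. On the right G0s2 alone is higher.

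Of 46 quiescent stellate cell markers listed, 3 were analysed here: Lrat and Des, both lower, and G0s2, which was higher. G0s2, an inhibitor of lipolysis also made by hepatocytes, was at 6.03, 12.0 and 13.3 CPM in vehicle livers 1 to 3 and at 18.5, 40.9 and 23.5 CPM in gigantol livers 1 to 3, FDR 0.0368 in the authors' deposited table. The defining stellate genes Reln, Hgf, Pdgfrb, Rgs5, Ecm1 and Colec11 were not analysed here. The 3 analysed markers thus did not go one way, and G0s2 was the only one of them with an FDR under 0.05. Over all 332 genes 64.2% had a lower mean and 25.9% had such an FDR. Of 38 activated stellate cell and fibroblast markers, Tnc, the matrix protein tenascin C, was analysed; it was at 1.76, 1.37 and 1.95 CPM in vehicle livers and 0.659, 0.329 and 1.06 CPM in gigantol livers. Tnc kept the gigantol order of Des and Lrat, with liver 2 lowest and liver 3 highest, and did not pass in the authors' deposited table (FDR 0.285). Acta2 and the collagen genes of the list were not analysed here.

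Muscle genes had lower means beside Des. Of 48 smooth and striated muscle genes listed, 3 were analysed here, and all 3 lay entirely lower in the gigantol livers, where 48.5% of the 332 genes did. Myl9, a myosin light chain of smooth muscle, was at 2.40, 2.82 and 2.17 CPM in vehicle livers and 1.32, 0.939 and 1.18 CPM in gigantol livers. Tpm2, a tropomyosin, was at 1.42, 3.13 and 2.30 CPM in vehicle livers and 0.942, 1.08 and 1.22 CPM in gigantol livers. Neither passed in the authors' deposited table (FDR 0.102 for Myl9 and 0.329 for Tpm2), so of the 3 muscle genes none did. The table's annotation to contractile or filament structures, again read after the values were seen, added 6 genes to these. They were Pdlim4, Gpr65, Smpd3, Tmod1, Nox4 and Slc4a1. None of the 6 was on the muscle list, and Slc4a1 is also 1 of the listed red cell genes. Of the 9 in all, 8 had lower means, against 64.2% of the 332 genes. Pdlim4, an actin-binding LIM protein gene at 0.637 to 1.02 CPM in vehicle and 0.0810 to 0.235 CPM in gigantol livers, alone of the 9 had an FDR under 0.05 in the authors' deposited table (0.0441), a smaller share than the 25.9% of all 332 genes. Its values rest on few reads. In gigantol livers 2 and 3 Pdlim4 was at 0.141 and 0.0810 CPM, where 3 reads equal 0.141 and 0.122 CPM.

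Cyp26a1 is also a gene of hepatocytes around the central vein, and of 47 such genes listed 2 were analysed here. The other was Cyp7a1, the rate-limiting enzyme of bile acid synthesis, at 202, 183 and 159 CPM in vehicle livers 1 to 3 and at 39.9, 140 and 36.5 CPM in gigantol livers 1 to 3. As for Cyp26a1, gigantol liver 2 was the highest of its group, and the vehicle mean was 2.51 times the gigantol mean with it and 4.75 times without it. Vehicle liver 1, the lowest vehicle liver for Cyp26a1, was the highest for Cyp7a1. Its FDR in the authors' deposited table was 0.222. The pericentral genes Glul, Cyp2e1, Oat, Axin2 and Lgr5 were not analysed here.

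Over the 132 genes with a lower gigantol mean and at least 1 CPM on average, gigantol liver 2 was the highest gigantol liver for 43.9% and the lowest for 38.6%, and vehicle liver 1 was the lowest vehicle liver for 53.8%. The opposite positions of gigantol liver 2 for Cyp26a1 and for Lrat and Des were therefore both common in the table. Markers of other cells had lower gigantol means too, as 64.2% of the 332 genes did. They were lower for all 9 analysed of 17 red cell and platelet genes, with summed levels of 352 to 636 CPM in gigantol and 567 to 1923 CPM in vehicle livers. Only 4 of the 9 lay entirely lower in the gigantol livers, where 48.5% of the 332 genes did. Of the 9, 2 (Ppbp and Hba-a2) had an FDR under 0.05 in the authors' deposited table, where 15.7% of the 332 genes were lower with such an FDR. The 3 analysed of 24 lymphocyte markers (Nkg7, Cd8a and Cd79a) had summed levels of 0.565 to 0.939 CPM in gigantol and 2.00 to 2.27 CPM in vehicle livers, and none passed (FDR 0.340, 0.448 and 0.576 in the authors' deposited table). Marco, the only analysed one of 29 Kupffer and myeloid markers, was at 1.55 to 3.71 and 8.21 to 8.89 CPM and passed there (FDR 0.000107). None of these values was 0, and none of the 30 endothelial or 22 cholangiocyte and mesothelial markers was analysed here. The part of these cells in the lower Lrat and Des was not tested.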

How the data were processed

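The table deposited by the authors lists 332 genes with CPM in 6 livers, a unit read from the values, since low values are whole multiples of 1 step per library (within 0.1 reads). Beside the CPM the authors deposited a log2 fold change, a p-value and an FDR for each gene, adjusted over 13192 genes. The largest p is 0.0499 and no log2 fold change is nearer to 0 than 1, so the rows are a selection. The submitters' processing notes name HISAT2, fastp and DESeq2 1.16.1 and a human build, GRCh38; the read counter is not given in the sources used. Groups followed the treatment label. Reads per library came from the steps.

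Differences of log2(CPM + 1) with standard errors came from limma 3.58.1 in R 4.3.3, trended and robust, over the 201 genes that reached 1 CPM in 3 or more livers, with Benjamini-Hochberg adjustment at 0.05 (111 genes passed, 71 lower, a background on selected rows). The script was tested on simulated data. The genes, the 16 gene lists and the rule for named genes (the 3 genes, list members in the table, up to 4 per other cell type list, and the 3 nearest profiles each) were chosen with earlier results of these data known. Each mouse gave 1 liver. Replicate numbers were not taken to pair livers. Alternatives were the pseudocount, the filter, the replicate block and leaving out each liver.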

Additional observations from a re-analysis of the deposited data

How the results depend on the processing

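With 1 liver left out at a time, the log2(CPM + 1) difference ranged from −1.97 to −1.51 for Cyp26a1, from −1.21 to −0.71 for Lrat and from −1.14 to −0.70 for Des. The groups did not overlap for any of the 3 genes, so these runs could change the size of the difference but not its direction. With a pseudocount of 0.1 CPM in place of 1 the differences were −2.44 for Cyp26a1, −1.27 for Des and −0.99 for Lrat, and with 0.5 CPM −2.02, −1.07 and −0.95. Of the 201 table genes in the main limma fit, 111 passed. With no filter on low values 169 of 332 passed, of which 87 had also passed in the main fit. A mean of at least 5 CPM kept 101 genes, and 24 of them passed. With 1 liver left out, between 32 and 136 of the 201 passed. The number was 57 when gigantol liver 1 was dropped and 60 when gigantol liver 3 was. Dropping vehicle liver 2 left 32, and dropping vehicle liver 3 left 35. In the fit with the replicate number as a block 128 passed. Each number holds 1 liver of each group, so the block could not move a difference, only its SE. The SE went from 0.379 to 0.368 for Cyp26a1, from 0.441 to 0.517 for Lrat and from 0.346 to 0.372 for Des. Deviations of same-numbered livers correlated at 0.13, 0.15 and −0.10 over 201 genes, so the numbers were treated as labels. Among the named genes fitted with limma, no direction reversed under these settings. For genes whose groups did not overlap, leaving out a liver could not have reversed it. Nkg7, Cd8a, Cd79a, Pdlim4, Tmod1 and Cd209f were below the filter, and for them only the fold with 1 liver left out was computed. The ratios between genes and the runs behind them were chosen after seeing the data. An edgeR test on reads worked out from the CPM was planned and was not run, because a unit check did not accept the vehicle columns. With the refined step of each library, vehicle ones included, 100% of values lay within 0.1 reads of a whole read. Reads are therefore given only for depth and for the counting error of a value. With 3 livers a group and 12 to 63 reads behind Cyp26a1 and Des in the gigantol livers, depth limits how well these livers can be ordered.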

Other observations

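Gigantol liver 2 also stood apart for Nox4, an NADPH oxidase gene of the set annotated to contractile structures, at 20.1 CPM against 3.53 and 3.05 CPM in the other gigantol livers and 0.911 to 3.07 CPM in vehicle livers. Its gigantol mean was 3.86 times the vehicle mean with that liver and 1.43 times without it. Ppbp, the other gene with the paired hexamers near its start, was at 9.44, 3.75 and 3.64 CPM in vehicle livers 1 to 3 and at 1.51, 0.657 and 0.772 CPM in gigantol livers 1 to 3. Its FDR was 0.000293 in the authors' deposited table, and the vehicle mean was 5.73 times the gigantol mean, or 3.78 times without vehicle liver 1. Tmod1, an actin-capping gene of the contractile set, was at 0 reads in gigantol liver 2 (3 reads there equal 0.141 CPM), at 0.141 and 0.325 CPM in gigantol livers 1 and 3 and at 0.412 to 1.26 CPM in vehicle livers. Its vehicle mean was 5.68 times the gigantol mean, or 12.5 times without gigantol liver 3, and its FDR was 0.220 in the authors' deposited table.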
